A study of Mus musculus with 2 samples.

Results

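Among the tumour cells of a mouse brain tumour with mutant IDH1, a small set stood at the top of the type I interferon response while holding no transcript of the main MHC class II genes. The tumour was taken from C57BL/6 mice at the symptomatic stage, and single-cell RNA was counted in 2 droplet libraries, replicates 1 and 2, of the same group (mIDH1). No tumour of another group, such as one without the mutation, was compared. The labels do not say whether the libraries came from separate animals, so the spread between them may be technical. The cells were chosen by measured values. A cell passed the gate with at least 200 genes, at most 15% mitochondrial counts, at least 10000 UMIs (unique molecular identifiers, 1 per captured RNA molecule), at least 1000 CPM of Nras, at most 1 UMI of the myeloid genes Tyrobp and Fcer1g together, and 0 UMIs of the class II genes Cd74, H2-Aa, H2-Ab1 and H2-Eb1. CPM is a count per 1000000 UMIs of a cell or of a summed class. The gate held 862 cells of replicate 1 and 691 of replicate 2. Within each library these cells were ranked by the summed CPM of Ifit1, Ifit3, Rsad2, Isg15, Ifi44 and Usp18, and the top 70 were taken. This gave 140 interferon-high cells of 4970 barcodes in all, set against the 1413 other cells of the gate.

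Type I interferons are secreted proteins that bind the receptor chains IFNAR1 and IFNAR2. Kinases at the receptor then activate a transcription factor complex that includes STAT2 and IRF9 and switches on interferon-stimulated genes through a DNA element rich in GAAA repeats. RNA sensors such as MDA5 (Ifih1) and RIG-I (Ddx58) can start the same programme, since their signal through IRF3 leads to interferon beta (Ifnb1) and also acts on some of the stimulated genes directly. Interferon gamma uses another receptor and is the main inducer of Ciita, the master regulator of MHC class II genes. In gliomas, interferon-stimulated genes are known from both tumour cells and myeloid cells.

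The ranking genes sit on different chromosomes, apart from Ifit1 (chromosome 19, 34640871 to 34650009, plus strand, GRCm38) and Ifit3 (chromosome 19, 34583531 to 34588731, plus strand). Rsad2 is on chromosome 12 (26442746 to 26456452, minus strand), Isg15 on chromosome 4 (156199424 to 156200818, minus strand), Ifi44 on chromosome 3 (151730922 to 151749960, minus strand) and Usp18 on chromosome 6 (121245906 to 121270917, plus strand). Their promoters in the RefSeq table (build GRCm38.p6, 250 bases before to 50 after each start) were searched on both strands for a pair of GAAA with any 2 bases between them, a core form of the interferon-stimulated response element. The stretches around the matches are shown because they are promoter DNA that 4 of the ranking genes share, with the matches in capitals (a pair of TTTC is the same motif on the other strand) and each stretch read along its gene. The chemokine gene Cxcl10 and the GTPase gene Gbp2, which the ranking did not use, are added.
Ifit1: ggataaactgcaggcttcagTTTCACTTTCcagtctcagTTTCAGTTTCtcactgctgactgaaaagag
Ifit3: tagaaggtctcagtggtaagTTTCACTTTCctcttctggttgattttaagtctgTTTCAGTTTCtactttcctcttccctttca
Rsad2: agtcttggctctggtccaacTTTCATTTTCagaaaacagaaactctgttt
Isg15: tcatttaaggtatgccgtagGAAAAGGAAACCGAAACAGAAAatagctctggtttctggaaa
Cxcl10: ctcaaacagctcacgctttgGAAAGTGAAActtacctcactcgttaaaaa
Gbp2: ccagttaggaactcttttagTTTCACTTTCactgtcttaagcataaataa

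The stretches lie at chr19:34640765-34640833 (Ifit1), chr19:34583353-34583436 (Ifit3), chr12:26456543-26456592 (Rsad2), chr4:156200855-156200916 (Isg15), chr5:92349073-92349122 (Cxcl10) and chr3:142620584-142620633 (Gbp2). Ifit1 and Ifit3 held 2 matches each, Rsad2 held 1, and Isg15 held 3 that overlap. Positions are counted from the RefSeq start, which for Ifit1 differs from the gene start given above. In Ifit1 the matches run from 104 to 76 bases before the RefSeq start, in Isg15 from 78 to 57. Ifi44 had no match in its window, and Usp18 was not matched in the table. Ifnb1, which was also searched, had no match in its window. Overlapping matches were each counted, and of all 32851 promoters, 1131 (3.44%) held the motif. Counted by gene, 317 of the 8272 genes tested below that have a promoter in the table (3.83%) held it, against 68 of the 294 higher in interferon-high cells (23.1%) and 2 of the 67 lower (2.99%). A match describes these letters in this window and was not tested as a binding site.

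The values that chose the cells fell off steeply and without a gap. The highest cell of replicate 1 had a ranking score of 15197 CPM and the cell at rank 70 had 1669, against 1648 at rank 71. In replicate 2 the values were 10980, 1465 and 1455. The median over the gate was 145 CPM in replicate 1 and 149 in replicate 2, and 97 and 67 cells had no UMI of the 6 genes. The border therefore runs through a range: 18 and 22 cells lay within 10% of it. The members held 50.9% and 56.0% of all ranking-gene UMIs of the gate, with 6.67% and 9.51% of its total UMIs. They were shallower than the other gate cells in replicate 1 (median 32040 against 41638 UMIs) and close to them in replicate 2 (44805 against 47066). Median mitochondrial shares were 3.66% and 3.63% in the members, against 3.40% and 3.56%.

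**Figure D1:**
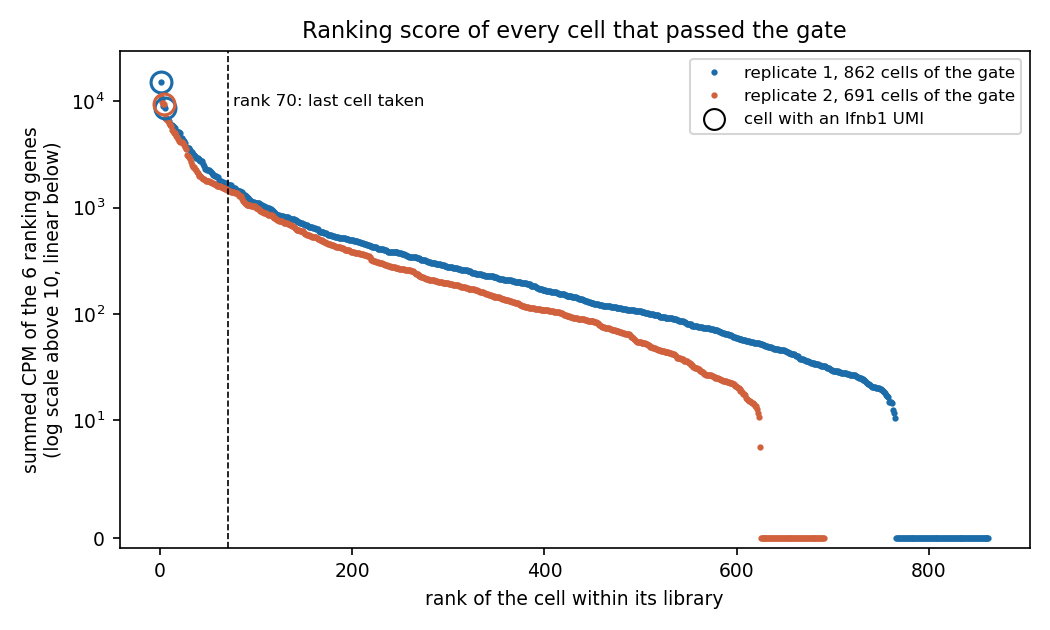
Summed CPM of the 6 ranking genes (vertical axis, logarithmic above 10) against the rank of each gate cell within its library (horizontal axis), for replicate 1 (862 cells) and replicate 2 (691 cells). The dashed line marks rank 70, the last cell taken; open circles mark the 3 members with an Ifnb1 UMI, at ranks 1 and 5 in replicate 1 and rank 4 in replicate 2.

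As a description of the choice, with no test, Ifit1, whose protein binds foreign RNA caps, stood at 737 and 605 CPM in the members of replicates 1 and 2, against 17.9 and 20.6 in the other gate cells. Ifit3, its partner, stood at 724 and 558 CPM against 16.6 and 17.5. Rsad2, which encodes the antiviral enzyme viperin, stood at 392 and 452 against 8.92 and 6.53. Isg15, a ubiquitin-like protein, was seen at 1402 and 1189 against 159 and 163, and Usp18, the protease that removes ISG15 and dampens the receptor, at 204 and 189 against 18.0 and 19.3. Ifi44 stood at 215 and 188 against 33.3 and 34.98. In all 6 genes both member values lay above both values of the other cells. Single cells spread widely: Rsad2 ran from 0 to 3289 CPM in replicate 1 (median 153) and from 0 to 4895 in replicate 2 (median 186).

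As the ranking on their sum favours, all 6 genes had a UMI in 109 of 140 members, against 74 of 1413 other gate cells. With each cell thinned to 10000 UMIs the counts were 55 of 140 and 3 of 1413. As a further description, with no test, cells were also ranked by 3 of the genes and the other 3 were read. The 6 genes were chosen as a set with earlier results of these data known, so high values were favoured in advance. Of the top 70 cells by Ifit1, Isg15 and Usp18, 66 (replicate 1) and 64 (replicate 2) were members. The top 70 cells by Ifit1, Isg15 and Usp18 had 39.2-fold (replicate 1) and 27.0-fold (replicate 2) the Ifit3 level of the other cells, and 35.9-fold and 36.7-fold the Rsad2 level. Held-out Ifi44 differed least, by 6.22-fold and 5.28-fold.

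The label of tumour cells was set beside markers, in part fixed by the gate on Nras, Tyrobp and Fcer1g. The members held the growth-signalling GTPase Nras (part of the gate) at 2907 and 2674 CPM, the cell cycle inhibitor gene Cdkn2a at 455 and 457, the intermediate filament gene Nes at 74.9 and 75.8, the stem and progenitor factor Sox2 at 13.3 and 16.2 and the matrix gene Tnc at 40.4 and 37.5. In 794 immune barcodes of the same libraries (at least 10 UMIs of Tyrobp and Fcer1g, Nras under 1000 CPM) Cdkn2a stood at 9.505 and 15.6 CPM and Sox2 at 0.288 and 0. The 15 macrophage and microglia markers summed to 30.3 and 22.7 CPM in the members, against 30.3 and 32.8 in the other gate cells. Low values follow from the gate, which allowed at most 1 UMI of Tyrobp and Fcer1g together, so they are no separate check. Of the 15 markers 5 were at 0 in the members of replicate 1 and 4 in replicate 2, with Csf1r and Adgre1 at 0 in both. Adgre1 was also at 0 in the other gate cells of replicate 2. The T and NK cell list summed to 0.721 and 0.280 CPM and the neutrophil list to 3.24 and 1.12. Scrublet called 0 of the members doublets and 1 cell of the gate. The libraries shared 10 barcodes, 0 of them in the gate.

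Interferon transcripts themselves were almost absent. Of the 20 interferon genes measured, Ifnb1 (chromosome 4, 88522025 to 88522774, minus strand) was counted at 69 UMIs in 4 of 4970 barcodes. Of these UMIs, 68 lay in 3 members: 13 in the highest-ranked cell of replicate 1, 1 in the cell at rank 5, and 54 in the cell at rank 4 of replicate 2. The fourth barcode had 1070 UMIs in all and lay outside the gate. Over the pooled class Ifnb1 stood at 10.7 CPM in the members, at least 260.0-fold above the other gate cells, where 0 of 1413 cells had a UMI, by a floor of 3 counts over that group. That fold rests on 3 cells. A count of 0 among 1413 leaves room for up to 0.212% of cells bearing a UMI, a limit of counting error alone. Ifna4 had 1 UMI, outside the gate, and the other interferon alpha genes and the lambda genes Ifnl2 and Ifnl3 had none. Ifnz, a mouse relative of the alpha genes, had 14 UMIs in 14 barcodes, of which 1 was a member and 8 were other gate cells. Ifng, the gene of interferon gamma, had 96 UMIs in 24 barcodes, none of them a member.

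The 3 cells with Ifnb1 also stood apart from the medians of the other 137 members in other genes. They are among the highest-ranked cells of their libraries, and the part of rank was not tested. These genes were picked after their values were seen and are described without a test. Ccl2, a monocyte attractant, had 70, 152 and 44 UMIs in the 3 cells, which was 52.1% of all Ccl2 UMIs in the members, while the median of the others was 0. Ifih1 stood at 543, 484 and 937 CPM in them, against medians of 55.7 (replicate 1) and 46.1 (replicate 2) over the others. Cmpk2, a mitochondrial nucleotide kinase, stood at 314, 797 and 1312 CPM, against medians of 57.5 and 44.7. Irf7 did not follow: it stood at 28.6 and 56.9 CPM in the cells of replicate 1, where the median of the others was 179, and at 150 in the cell of replicate 2, against 149. Eif2ak2, which encodes the RNA-sensing kinase PKR, had 1, 1 and 0 UMIs, against medians of 93.5 and 69.5 CPM over the others. Some high-ranked cells without Ifnb1 also had more Ifih1 than Irf7. The cell at rank 1 of replicate 2 had 17 and 1 UMIs of them, and the cell at rank 10 of replicate 1 had 17 and 3. Others did not, such as the cell at rank 2 of replicate 1 with 0 and 16.

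**Figure D2:**
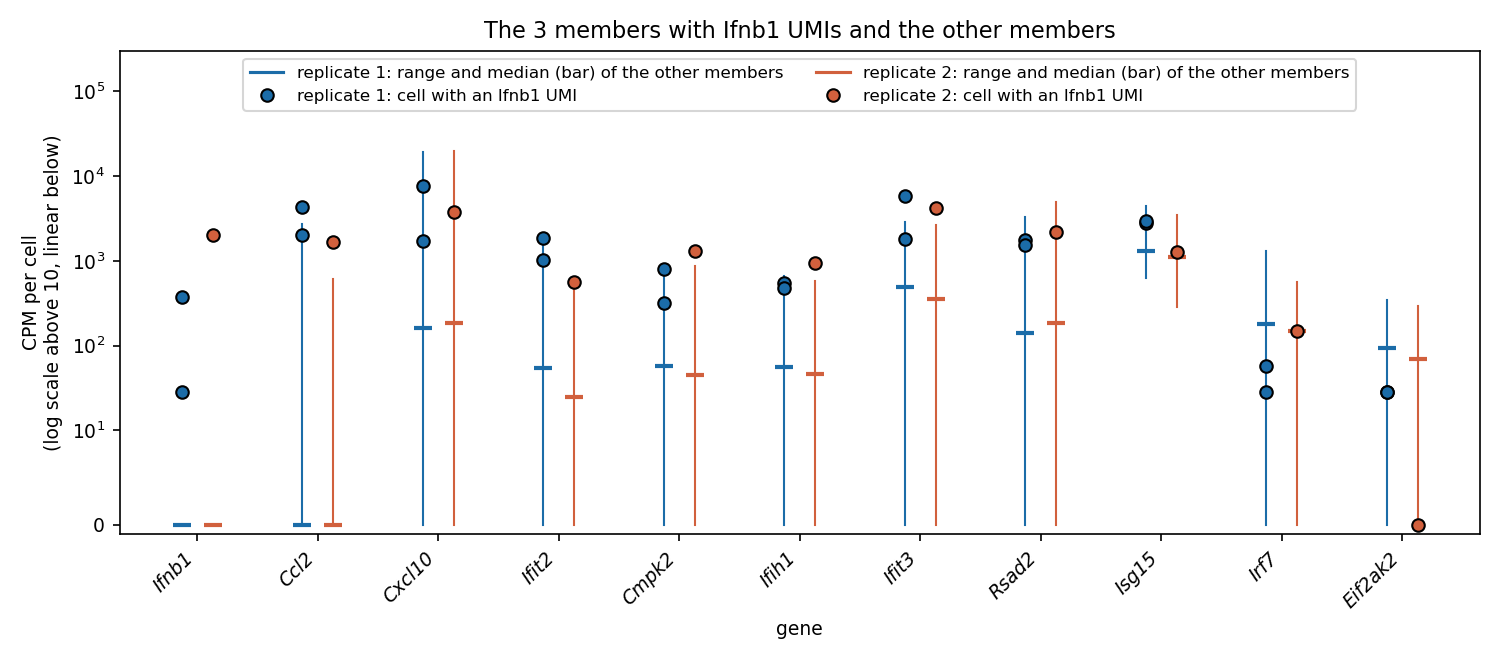
CPM per cell (vertical axis, logarithmic above 10) of 11 genes in the 3 members with an Ifnb1 UMI (filled circles) and the range (line) and median (bar) of the other members, 68 in replicate 1 and 69 in replicate 2. Ccl2, Cmpk2 and Ifih1 lie far above the medians in all 3 cells, while Eif2ak2 lies below them.

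To ask which other genes differed, raw counts were summed per class and library and the members were set against the other gate cells with edgeR's quasi-likelihood test, leaving out the ranking and gate genes. Genes that vary together with the ranking genes from cell to cell must differ in such sums. A call says that the difference was large beside the spread between libraries in the fit. It does not say that both libraries carried it: the calls of Ccl5 and Hbb-bs, given below, rested on replicate 1. Of 10491 genes tested, 392 were higher in interferon-high cells (3.74%) and 90 were lower (0.858%) at an adjusted p under 0.05 (4.59% in either direction, or 2.23% when the change is also 2-fold or more), and the median log2 fold change over all genes was -0.002. With 2 classes alone in the fit the counts were 643 and 351, and with DESeq2 277 and 28. All 392 higher genes and 89 of the 90 lower genes had the same direction in each library. In 11 of the higher genes a single cell held at least 50% of the member UMIs of a library.

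Of 45 antiviral effector genes tested, 42 were higher in the members, with a median log2 fold change of 2.38. Mx1, a gene of the dynamin-like GTPase family, was at 49.7 and 36.7 CPM in the members against 1.005 and 0.794 in the other cells. Its log2 fold change was 5.56 ± 0.41 SE (edgeR adjusted p = 1.49e-06). Ifit3b, a near copy of Ifit3 whose reads can be hard to assign, was at 148 and 124 against 3.40 and 2.70. Ifit2 was at 166 and 109 against 3.30 and 3.50 (5.34 ± 0.26), and Cmpk2 at 107 and 124 against 3.63 and 3.70 (4.98 ± 0.20). In these 4 genes both member values lay above both values of the other cells, which adds no support at fold changes this large. Mx1 UMIs were found in 63 of 140 members and in 40 of 1413 other cells. The 3 genes not called were Ifitm1, Ifitm2 and Ifi27. Ifitm1, a membrane protein that blocks viral entry, was at 1067 and 1178 CPM in the members and at 1039 and 948 in the others.

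Of the 22 genes of the receptor and signalling list, 8 were higher (such as Stat2, Irf9, Irf7 and the feedback inhibitor Socs1), 0 were lower (0 also at an unadjusted p under 0.05 and by DESeq2), and the median was 0.29. The receptor genes were among those not called: Ifnar1 was at 17.3 and 10.1 CPM in the members and 12.01 and 12.9 in the others, and Ifnar2 at 38.9 and 47.0 against 34.97 and 37.9. Irf7, which amplifies interferon alpha production, was at 222 and 156 CPM against 37.5 and 39.3 (log2 fold change 2.31 ± 0.16). Stat2, a part of the factor complex, was at 69.9 and 74.4 against 17.3 and 16.8 (2.10 ± 0.11, edgeR adjusted p = 7.09e-08). In both genes the member values lay above those of the other cells, which adds nothing to the calls. Irf5 was at 7.57 and 8.95 CPM against 1.67 and 1.82, and its call was lost (1.49, edgeR adjusted p = 0.122) among cells with at least 2000 CPM of Nras.

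Of 18 genes for nucleic acid sensors and adaptors, 8 were higher, with a median of 0.60. Dhx58, the regulator LGP2, was at 23.1 and 27.1 CPM against 2.19 and 2.76 (log2 fold change 3.35 ± 0.19). Ifih1 was at 90.4 and 73.3 against 9.48 and 12.2 (2.93 ± 0.15), the endosomal receptor Tlr3 at 35.7 and 34.4 against 5.57 and 4.44, and Ddx58 at 78.5 and 72.2 against 18.5 and 16.4. These 4 genes, all sensors of RNA, had both member values above those of the other cells, which adds nothing to the calls. The adaptor gene Mavs (7.57 and 12.6 against 9.25 and 9.70 CPM) and the DNA sensing genes Mb21d1 (cGAS) and Tmem173 (STING) were among the 10 not called.

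Of 22 MHC class I presentation genes 19 were higher, with a median log2 fold change of 0.90. H2-T22, a nonclassical class I gene with close copies, was at 124 and 122 CPM against 41.9 and 43.5 (1.55 ± 0.08). Tap2, which carries peptides into the endoplasmic reticulum, was at 40.7 and 40.0 against 14.9 and 15.8, and Psmb9, an immunoproteasome subunit, at 104 and 103 against 44.9 and 41.2. The peptide-loading chaperone gene Calr was not called, at 371 and 292 against 329.8 and 346. The guanylate-binding and immunity-related GTPases, which attack vacuoles of intracellular microbes, were higher in all 16 tested genes (median 1.88). Igtp was at 165 and 159 CPM against 37.4 and 35.2 (2.18 ± 0.08) and Gbp5 at 9.01 and 15.9 against 1.005 and 1.499 (3.34 ± 0.28). H2-DMa, a class II loading gene that the gate did not use, was at 2.16 and 1.12 CPM against 1.24 and 1.41 and was not called.

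**Figure D3:**
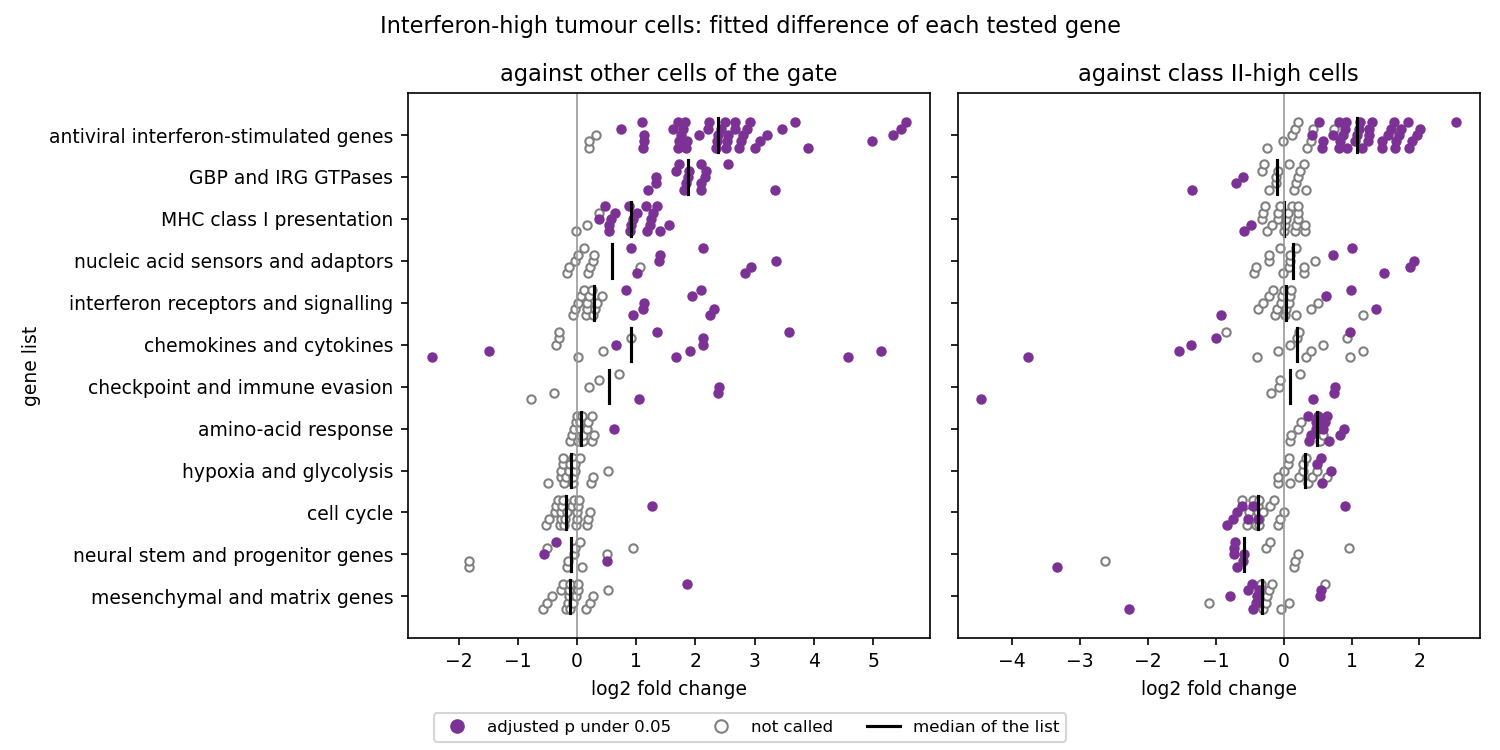
Log2 fold change of each tested gene (points) in 12 gene lists, for interferon-high cells against the other cells of the gate (left) and against class II-high cells (right), from 1 edgeR fit of 6 sums. Filled points have an adjusted p under 0.05, open points do not, and the black bar is the median of the list; the antiviral list has a median of 2.38 on the left and 1.08 on the right.

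Secreted signals differed in both directions. Of 17 tested chemokine and cytokine genes 9 were higher and 2 lower, with a median of 0.91 (DESeq2 called 7 and 0). Over 18 alternatives the higher calls ran from 5 to 10, the lower calls from 0 to 2 and the median from -0.005, without the low-count filter and over 29 genes, to 1.37. Cxcl10 (chromosome 5, 92346638 to 92348889, minus strand), which attracts T cells, was at 1091 and 826 CPM in the members against 30.3 and 24.5 (log2 fold change 5.14 ± 0.08, edgeR adjusted p = 1.94e-12). It had UMIs in 104 of 140 members and 249 of 1413 others, and reached 19315 CPM in a member of replicate 1 and 19547 in a member of replicate 2. Tnfsf10, the death ligand TRAIL, was at 10.1 and 7.83 against 0.412 and 0.323, and Il15, which sustains NK cells, at 8.29 and 4.76 against 0.541 and 0.529. Ccl5, a T cell and monocyte attractant that was called higher, had UMIs in 26 members and was at 149 and 25.5 CPM against 16.9 and 24.3, so that replicate 1 carried nearly all of the difference.

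The lower chemokine and cytokine genes were the colony-stimulating factor genes Csf3 and Csf2. The colony-stimulating factor gene Csf1 was among those called higher. Csf3, the gene of G-CSF, the factor named in the title of the series, was at 3.60 and 2.80 CPM against 9.43 and 8.61 (log2 fold change -1.49 ± 0.26, edgeR adjusted p = 0.00413), with UMIs in 16 members and 229 others. Csf2, the gene of GM-CSF, was at 1.44 and 0.560 against 4.999 and 5.59 (-2.46 ± 0.45), with UMIs in 6 members and 121 others. The Csf3 difference turned to 0.23 among cells with at least 2000 CPM of Nras, and was not called with 140 cells per library (-0.20) or by DESeq2 (-1.49, adjusted p = 0.0645). That of Csf2 lost its call in 5 of 16 alternatives, where its smallest size was -0.56.

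Of 8 tested genes for immune checkpoints and evasion 3 were higher, with a median of 0.53. Cd274, which encodes PD-L1, was at 34.95 and 37.8 CPM against 7.45 and 6.56 (log2 fold change 2.39 ± 0.15), Lgals9 (galectin-9) at 53.7 and 46.4 against 10.2 and 9.11, and Cd47, the signal that holds off phagocytes, at 344 and 331 against 166 and 165. The poliovirus receptor gene Pvr was not called, at 36.4 and 33.0 against 45.8 and 46.1. Among 18 cell death genes 3 were higher: the inflammatory caspase gene Casp4 (53.7 and 45.6 CPM against 13.6 and 13.5), Casp12, and Mlkl, the pore former of necroptosis (55.5 and 61.3 against 33.9 and 32.2). The call of Mlkl was lost after thinning the sums to 10000 UMIs per cell (log2 fold change 0.47, edgeR adjusted p = 0.348).

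In other programmes some lists had calls in both directions. Of 16 RAS-MAPK feedback genes 3 were lower (the phosphatase gene Dusp5, Spry4 and Areg) and 12 were not called. Spry1, an inhibitor of the pathway like Spry4, was higher (0.82 ± 0.14 on the log2 scale). Over 18 alternatives Dusp5 lost its call in 8, Spry4 in 2, and Areg and Spry1 in 0. Of 14 neural stem and progenitor genes Nes and Stmn1 were lower and Id3 was higher (0.50 ± 0.08). Stmn1 lost its call in 9 of 18 alternatives, Nes in 3, and Id3 in 1, with 35 cells per library (0.19). Of 24 cell cycle genes 1 was higher and 0 lower (8 lower at an unadjusted p under 0.05, 0 by DESeq2, and 0 to 8 over the alternatives). The higher gene was the cyclin E gene Ccne1, at 43.2 and 47.8 CPM against 21.9 and 17.4 (log2 fold change 1.26 ± 0.18). Of 18 hypoxia and glycolysis genes edgeR and DESeq2 called 0, with 2 higher and 6 lower at an unadjusted p under 0.05 and up to 6 called lower in an alternative, and of 18 oxidative phosphorylation genes both called 0, with 0 at that unadjusted p. Idh1 was at 94.4 and 79.2 CPM against 68.3 and 75.3 and was not called (0.28 ± 0.10), though it was in 3 of 18 alternatives, and 1 cell held 33.6% of its UMIs in the members of replicate 1. The counts do not separate the mutant from the normal allele. Cdkn2a was higher by 0.37 ± 0.07 on the log2 scale, a call lost among cells with at least 2000 CPM of Nras (0.20, edgeR adjusted p = 0.26) and after thinning (0.34, edgeR adjusted p = 0.0554). Nupr1, a stress-induced chromatin protein, was higher by 0.62 ± 0.06 (1911 and 1679.9 against 1205 and 1159.6 CPM). Timp3, an inhibitor of matrix proteases, was at 73.1 and 47.0 against 16.7 and 16.5 (1.85 ± 0.22). Acta2, a smooth muscle actin listed as a marker of mural cells, was at 10.8 and 10.9 against 2.65 and 3.03 (1.93 ± 0.28), with UMIs in 10 members, and 1 cell held 83.3% of its UMIs in the members of replicate 1. The 9 markers of mural cells and fibroblasts summed to 37.1 and 28.5 CPM against 17.2 and 17.6, with Rgs5, Des, Col1a2, Dcn, Lum and Kcnj8 at 0 in the members of both libraries.

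Fewer genes were lower in the members than were higher. The growth factor gene Areg, a target of RAS signalling, was at 204 and 189 CPM against 312 and 324 (log2 fold change -0.68 ± 0.08). Ptgs2, the prostaglandin synthase COX-2, was at 9.73 and 8.39 against 28.9 and 31.4 (-1.74 ± 0.22), and the keratin gene Krt19 at 24.1 and 20.1 against 62.0 and 54.1 (-1.38 ± 0.17). These 3 stayed called in each of 18 alternatives, which do not count the rule that also asks for a 2-fold change; Areg did not meet that rule. Nes was at 74.9 and 75.8 against 110.1 and 114 (-0.55 ± 0.09), and its call was lost in 3 of them. The maintenance methylation genes Dnmt1 (55.8 and 59.0 against 76.1 and 76.6 CPM) and Uhrf1 (17.7 and 16.8 against 29.7 and 29.2) were called lower and lost the call in 8 and 7. The heat shock gene Hspa1a was at 1.44 and 2.24 CPM against 9.84 and 24.9, a log2 fold change of -3.21 that ranged from -5.14 to 0.03 over the alternatives. Xist, the RNA of the inactive X chromosome, had 0 UMIs in the members and was found in 23 of the 1413 other gate cells, which held 317 UMIs of it. edgeR called it lower on these sums (adjusted p = 0.00921), but 1 cell held 39.5% of the UMIs in replicate 1 and 32.3% in replicate 2. A count of 0 among 140 members leaves room for up to 2.14% of cells with a UMI, above the share of the other cells (1.63%), so a smaller share of cells with Xist is not shown. The haemoglobin gene Hbb-bs was at 6.49 and 9.51 CPM against 112 and 8.29, so that replicate 1 alone carried that call.

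Outside the lists, the 8 called genes with the highest fold changes included 5 of the PYHIN family, whose human relative IFI16 senses DNA: Ifi208, Ifi213, Ifi206, Ifi205 and Ifi207. Ifi207 was at 90.4 and 88.7 CPM against 10.8 and 10.3, and Ifi206 at 18.7 and 18.5 against 1.42 and 1.79 (log2 fold change 3.54 ± 0.22). The family, counted after these genes were seen to lead, had 11 tested genes between 173350879 and 174031810 of chromosome 1, of which 10 were higher; Aim2 was not called. Trim12a, of the TRIM family that restricts viruses, was at 40.4 and 40.3 against 5.21 and 4.79 (3.02 ± 0.19). Fam46a was at 24.1 and 23.2 against 2.42 and 1.999. PYHIN and TRIM genes have near copies, so reads may be split among them.

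Below the members the same genes went down along the ranking, though not at every step. In replicate 1 the MHC class I list rose from 6366 CPM in ranks 71 to 140 to 6650 in ranks 141 to 210. In bins of 70 ranks, the antiviral list without the ranking genes summed to 10800 CPM in the members of replicate 1, 7650 in ranks 71 to 140, 5504 in ranks 281 to 350 and 3691 in ranks 701 to 770. In replicate 2 it stood at 10248, 7929 and 5055 in ranks 1 to 70, 71 to 140 and 281 to 350. GBP and IRG genes went from 1759 CPM in the members to 1070 in the next bin and 147 in ranks 771 to 840 of replicate 1. All cells of ranks 771 to 840 had a ranking score of 0, so the ranking does not order them. MHC class I genes went from 7799 to 3883 CPM between the same bins. Cxcl10 went from 1091 in the members to 138 in the next bin and 13.3 in ranks 211 to 280. In replicate 2 it went from 826 to 97.7 and 20.6. The cell cycle list showed no such slope, at 2239 CPM in the members and between 2107 and 3310 in the other bins of replicate 1. Neighbouring bins hold different cells of the same library and are not replicates.

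**Figure D4:**
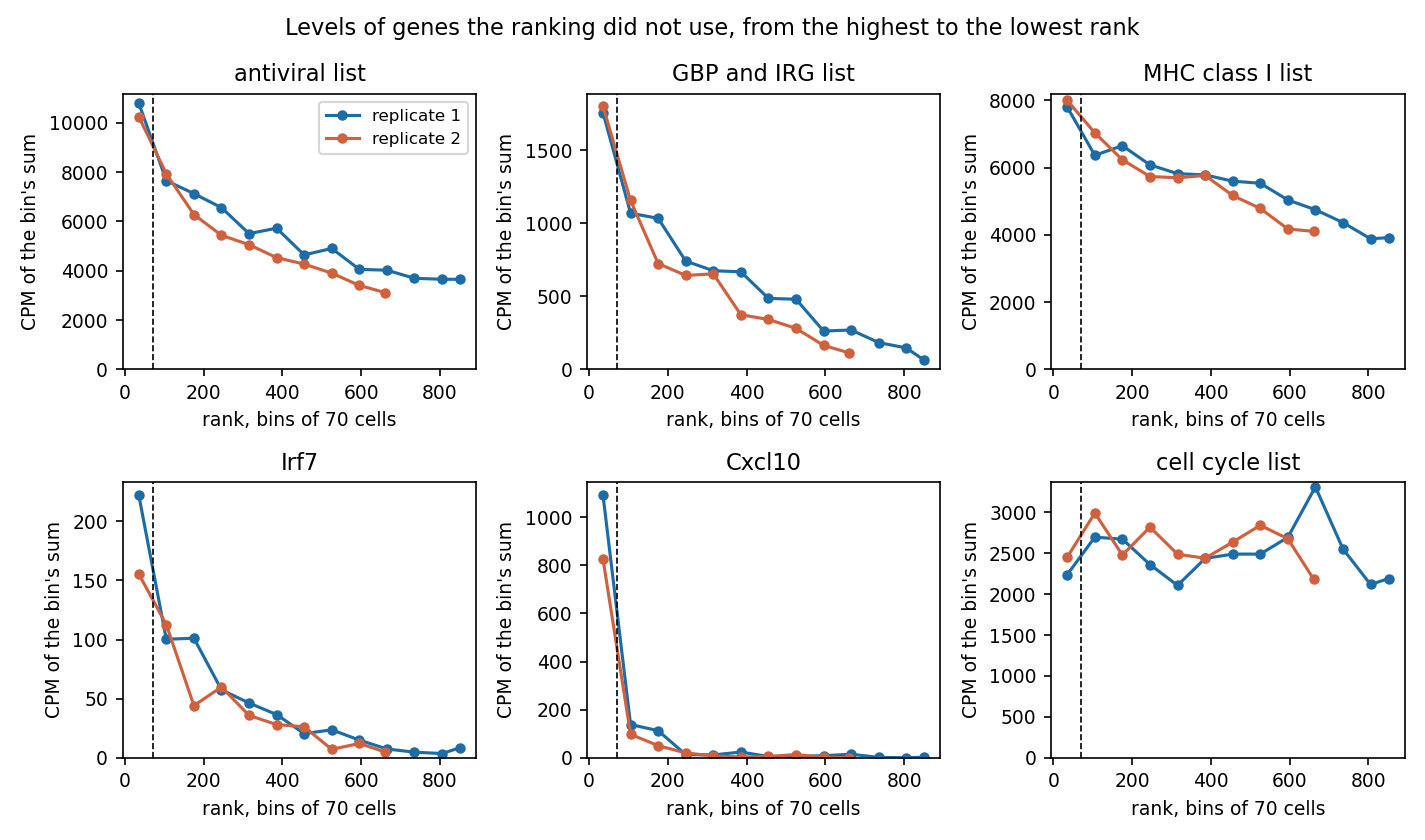
CPM of 4 gene lists and 2 genes (vertical axes, from 0) in successive bins of 70 cells ordered by the ranking score (horizontal axis, bin centre), 1 line per library. The dashed line marks rank 70. The antiviral, GBP and MHC class I lists, Irf7 and Cxcl10 go down to the right in both libraries, with rises between some neighbouring bins. The cell cycle list does not go down.

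The members also differed among themselves. Over the 70 members of a library, the ranking score and the summed sensor list had a Spearman correlation of 0.66 in replicate 1 and 0.57 in replicate 2, against 0.21 and 0.30 for MHC class I. For the chemokine and cytokine list it was 0.54 and 0.64, and for the cell cycle list -0.27 and -0.03. Pairs of genes the ranking did not use, picked after their values were seen, differed in how closely their levels moved together. Cxcl10 correlated with Oasl1 at 0.41 and 0.51 and with Cmpk2 at 0.43 and 0.55. Cxcl10 correlated with Irf7 at -0.18 and 0.22. Irf7 correlated with the GTPase gene Gbp7 at 0.23 and 0.28, and Cxcl10 and Gbp7 stood at 0.13 in replicate 1 and 0.56 in replicate 2. The points are single cells that share a library and differ in depth, so the coefficients are descriptions.

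To place the members beside the tumour cells that do carry class II genes, they were set against class II-high cells: cells passing every other condition of the gate with at least 1 class II UMI, of which the top 70 per library by class II CPM were taken (140 of 333). Of 10491 genes 306 were higher in interferon-high cells (2.92%) and 225 lower (2.14%), or 5.06% in either direction and 1.37% when the change is also 2-fold or more. The class II-high sums of replicate 1 also held 1792 CPM of red cell genes and 837 CPM of the antibody gene Igkc, all of it in 1 cell, and those of replicate 2 held 180 CPM of red cell genes, against 10.8 and 12.03 CPM of red cell genes in the members. Their part in the differences below was not tested. In class II-high cells 33 of 140 had a UMI of all 6 ranking genes, against 109 of 140 members, as the ranking favours. Members were chosen by the ranking genes and class II-high cells by class II genes. Genes that vary together with either set from cell to cell must differ in such sums. The calls below are therefore descriptions of cells so chosen.

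As the ranking favours, antiviral genes were higher in the members than in class II-high cells for 36 of 45 (median log2 fold change 1.08). Oasl1, an inhibitor of interferon production, was at 141 and 104 CPM against 31.6 and 12.9 (2.54 ± 0.23, edgeR adjusted p = 5.61e-05), and Helz2 at 22.7 and 24.9 against 6.17 and 7.26. Ifit2 was at 166 and 109 against 23.2 and 47.3, a call lost among cells with at least 2000 CPM of Nras (1.07, edgeR adjusted p = 0.0984). Of the 18 sensor and adaptor genes 5 were higher, such as Ifih1 at 90.4 and 73.3 against 20.5 and 26.0 (1.87 ± 0.17) and Ddx58 at 78.5 and 72.2 against 23.2 and 32.8. On the log2 scale Irf7 was higher by 1.37 ± 0.17 and Stat2 by 0.99 ± 0.12. Ifitm3 was not called, at 3452 and 3227 against 3345 and 3017.

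Of 22 MHC class I genes edgeR called 0 higher than in class II-high cells and 2 lower (4 and 5 at an unadjusted p under 0.05), and DESeq2 called 0 and 2. H2-D1 was at 1697 and 1741 CPM in the members against 1614 and 1572. Psmb9 was lower, at 104 and 103 against 189 and 138 (log2 fold change -0.58 ± 0.11), as was Psmb10. The call of Psmb9 was lost after thinning the sums to 10000 UMIs per cell (-0.40) and that of Psmb10 in 5 of 18 alternatives. Of 16 GBP and IRG genes edgeR called 0 higher and 3 lower (1 and 5 at an unadjusted p under 0.05), and DESeq2 called 0 and 2. Gbp4 was at 53.3 and 41.7 against 138 and 114 (-1.35 ± 0.11, edgeR adjusted p = 2.26e-05), and the signalling inhibitor gene Socs1 at 39.6 and 44.8 against 82.7 and 85.2.

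Of the 17 chemokine and cytokine genes 1 was higher and 4 lower than in class II-high cells. The T cell attractant Cxcl9 (chromosome 5, 92321347 to 92328079, minus strand), known as a target of interferon gamma, was at 1.08 and 6.995 CPM against 65.4 and 55.7 (log2 fold change -3.76 ± 0.39). Ido1, a tryptophan-degrading enzyme that interferon gamma also induces, was at 0.360 and 0.280 against 9.62 and 5.62, with UMIs in 2 members and 22 class II-high cells. Cxcl10 went the other way, at 1091 and 826 against 587 and 430.3 (0.98 ± 0.07). Ciita was at 0 and 1.40 against 7.65 and 5.62; since it drives the genes that defined the classes, it is given as a description. Csf3 was at 3.60 and 2.80 against 9.62 and 9.60 (-1.54 ± 0.30), and its difference turned to 0.49 among cells with at least 2000 CPM of Nras.

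**Figure D5:**
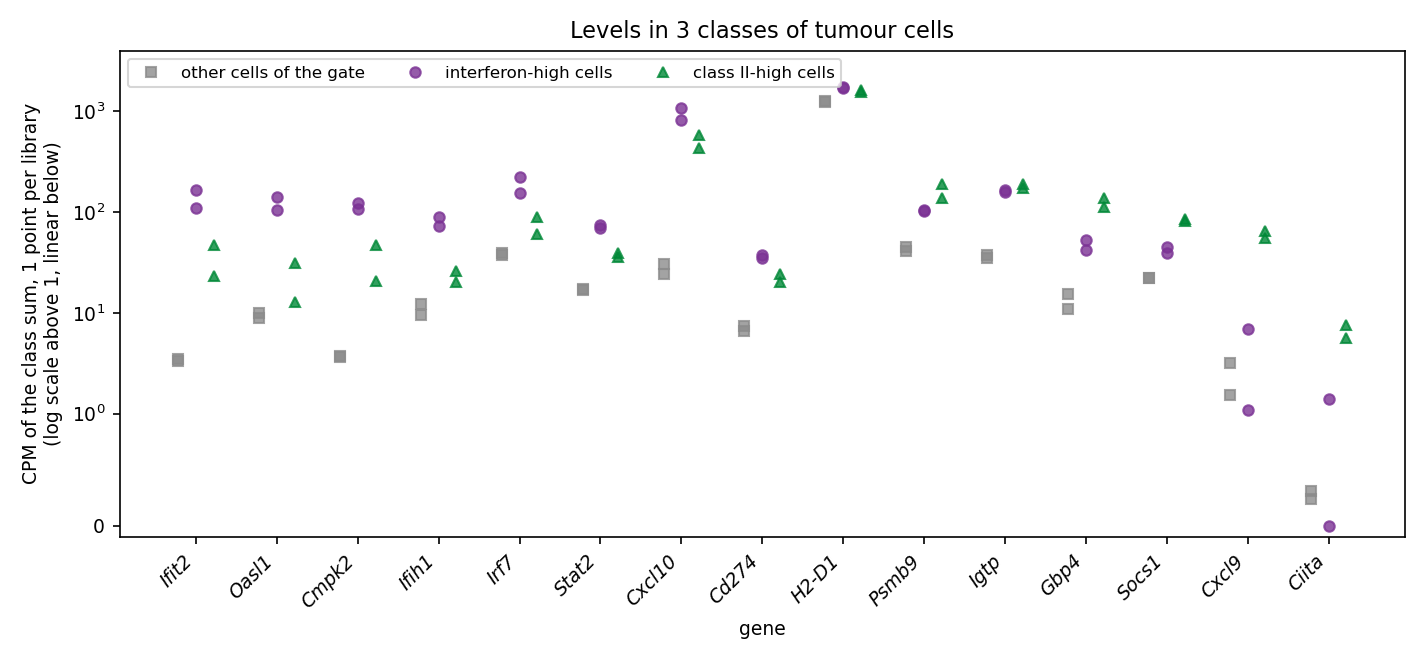
CPM of 15 genes (vertical axis, logarithmic above 1) in the summed counts of the other gate cells (squares), interferon-high cells (circles) and class II-high cells (triangles), 1 point per library. Ifit2, Oasl1, Cmpk2, Ifih1 and Irf7 are highest in interferon-high cells; Gbp4, Socs1 and Cxcl9 are highest in class II-high cells; the H2-D1 and Igtp points of these classes lie close together.

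Further differences from class II-high cells lay outside the interferon lists. Of 18 amino-acid response genes, which follow the factor ATF4, 12 were higher in the members (median 0.49), such as the cysteine synthesis enzyme gene Cth at 222 and 219 CPM against 113 and 146 (log2 fold change 0.83 ± 0.10). Of 24 cell cycle genes 7 were lower and 1 higher, with the proliferation marker Mki67 at 25.9 and 45.6 against 65.6 and 61.6, a call lost in 6 of 18 alternatives. Of 14 neural stem and progenitor genes 7 were lower, such as the microtubule regulator gene Stmn1 at 287 and 255 against 513 and 418 (-0.72 ± 0.08) and Id3, an inhibitor of transcription factors, at 357 and 332 against 565 and 623. Of 20 mesenchymal and matrix genes 8 were lower, such as Tnc at 40.4 and 37.5 against 78.7 and 62.0, and 2 were higher, Fn1 and Spp1. Over the alternatives Fn1 lost its call in 4 (down to 0.28 from 0.55), Tnc in 2, and Spp1 in 1, among cells with at least 2000 CPM of Nras (0.16 from 0.53). Outside the lists, the activin antagonist gene Fst was at 1.44 and 6.995 against 79.0 and 66.0 (-3.91 ± 0.30), and Crabp1, a retinoic acid carrier, at 4.68 and 16.2 against 122 and 81.5. Apol6 was at 0.721 and 0.560 against 9.38 and 11.5. The comparisons share the member sums, so their values are not independent of each other.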

How the data were processed

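Single-cell RNA was measured by droplet sequencing in 2 libraries of a mouse brain tumour with mutant IDH1. The deposited matrices hold raw UMI counts, which the authors obtained with Cell Ranger 3.1 and STAR on mm10, per the labels' protocols. The labels also name a step that brings runs to equal depth, but the totals of the files differ (63001350 and 58915133 UMIs), so whether that step was applied to them is not known, and the counts were taken as raw. Coordinates came from GENCODE M21 (GRCm38), where 30934 of 31053 gene identifiers were found.

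Cells were gated and ranked as the report states (Python 3.11.15, numpy 2.4.6, pandas 2.3.3, scipy 1.17.1; scrublet in scanpy 1.11.5 with an expected rate of 0.04). Raw counts were summed per library for interferon-high, other gate and class II-high cells, and the 6 sums entered 1 edgeR 4.0.16 quasi-likelihood fit (R 4.3.3) with TMM scaling, the filterByExpr filter on low counts and a term for the library, which left 2 residual degrees of freedom. It was a block because each library gave every class, so the pairing comes from the design. A gene was called at a Benjamini-Hochberg adjusted p under 0.05 over all genes tested; every SE and adjusted p is from this fit unless DESeq2 (1.42.0) is named. "Higher" and "lower" without values mean called genes. Such p-values measure how a difference between classes varies from library to library and do not cover the choice of cells. On counts simulated for the comparison with the other gate cells (10409 genes tested), 92% of genes changed by 1 on the log2 scale and 99% of those changed by 2 were recovered. For class II-high cells (10381 genes) it was 90% and 99%, with 6.9% of calls false. The simulation gave all genes 1 common spread and changed only genes above a low-count limit. It held no genes carried by 1 cell or 1 library, as the real counts do, so these rates may be too favourable.

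The 31 gene lists (534 genes), the members and the tests were chosen with earlier results of these data known. Named genes were, per comparison and list, up to 4 called genes with the largest log2 fold change and the most abundant gene not called, the 8 highest and 8 lowest outside the lists with at least 50 counts, and the ranking genes, interferon ligands and receptors, Idh1, Cdkn2a, Sox2, Nes, Tnc and Csf3; others were named after their values were seen and without support from them. Thinning drew 10000 UMIs from each cell.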

Additional observations from a re-analysis of the deposited data

How the results depend on the processing

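Of the named genes, 41 of 58 called against the other gate cells and 17 of 46 called against class II-high cells kept their call in every alternative that could be fitted, leaving aside the rule of an absolute log2 of at least 1; 9 and 4 lost it in 5 or more of up to 18. Genes higher and lower than the other gate cells numbered 392 and 90. The higher count became 643 with only the compared classes in the fit, 255 with sums thinned to 10000 UMIs per cell and 214 with an absolute log2 of at least 1. The lower count became 28 with DESeq2, 254 without the low-count filter, 351 with only the compared classes, 44 after thinning, 52 when ranked by Ifit3, Rsad2 and Ifi44, 54 with at least 20000 UMIs, 51 with at least 2000 CPM of Nras, 47 with Tyrobp and Fcer1g at 0 and 20 with an absolute log2 of at least 1. Against class II-high cells the counts were 306 and 225. The higher count became 470 without the filter, 108 after thinning, 119 with Nras at least 2000 CPM and 72 with an absolute log2 of at least 1. The lower count became 137 with DESeq2, 501 without the filter, 111 when ranked at 10000 UMIs, 71 after thinning, 108 with Nras at least 2000 CPM and 72 with an absolute log2 of at least 1. Fewer UMIs, genes or cells enter several of these by construction; the cause was not tested for the others. Without the replicate block the counts were 396 and 83, and 279 and 178.

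Directions turned for Calr after thinning (0.031), Csf3 (0.23, and 0.49 against class II-high cells), Dnmt1 (0.018), Hspa1a (0.032) and Stmn1 (0.017) with Nras at least 2000 CPM, Ifnar1 without the 5 highest cells per library (-0.038) and Sox2 with 35 cells per library (0.011); the cause was not tested. The settings without the Ifnb1 barcodes and without the 5 highest cells were added after seeing the data and gave 371 and 79, and 350 and 69, genes against the other gate cells. As a mean over cells, Ifi44 and Usp18 stood at 225 and 222 CPM against 201 and 196. Thinning moved the share of members with a UMI from 97.1% to 91.4% for Ifit1, 97.9% to 91.4% for Ifit3, 86.4% to 67.9% for Rsad2, 97.1% to 80.7% for Ifi44 and 95.7% to 70.7% for Usp18. Leaving out either library left single sums per class with no test; of the called genes named in the report, Hbb-bs alone changed direction, at 9.51 against 8.29 CPM in replicate 2.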
